A study of Mus musculus with 12 samples.

Results

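The genes of sugar breakdown were followed in cultured mouse microglia exposed to neurofilament light chain (NfL), a structural protein of the neuronal cytoskeleton. The set held 33 genes: the enzymes of glycolysis and of the pentose phosphate pathway, the transporters that bring in glucose and move lactate, and the main regulators of the flow. They were chosen by name, as the rows of the count table whose Ensembl mouse identifier maps to a listed symbol in the GENCODE M21 annotation. The table lists 52636 gene identifiers, and 14687 of them had enough counts to be tested. All 33 symbols were found, in 34 rows, since Aldoa has a second identifier (ENSMUSG00000114515) with 1 to 8 counts per library that was too low to test.

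Glycolysis splits glucose into pyruvate in the cytosol, and the hexokinase, phosphofructokinase and pyruvate kinase steps are its main points of control. Lactate dehydrogenase turns pyruvate into lactate and so restores the NAD+ that the pathway uses, while the pentose phosphate branch takes glucose 6-phosphate to make NADPH and the sugar of nucleotides. Microglia, the resident macrophages of the brain, are known to draw more on glycolysis when they are activated by inflammatory stimuli, and NADPH feeds both their oxidant production and their antioxidant defence.

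The 3 groups of 4 libraries were compared. Every group was made of wild-type (WT) C57BL/6 primary microglia from pups of postnatal day 1 to 2, shaken off mixed glial flasks after 10 to 13 days and plated at 50000 cells per well in serum-containing medium with 2.5 ng of CSF1, a growth factor for microglia. For 24 h the cells received vehicle, 5 µg of full-length NfL or 5 µg of coiled-coil NfL, the middle segment of the protein through which filaments assemble. The labels place replicates 1 to 4 of each group in batches b1 to b4, so each batch holds 1 library of each group. Whether a batch was a separate culture or litter, how the proteins were made and the volume of a well are not stated in the labels, so p-values measure the spread between these libraries, which may be technical.

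Library totals ran from 20162427 to 31048044 counts, and the 33 genes held 0.328% to 0.492% of them. All 10 microglial markers were detected in every group. Their summed level was 8253 to 9686 CPM (read counts normalised to library size with TMM factors) in vehicle and 7540 to 7776 CPM with full-length NfL, so the labelled cell type was present throughout. Markers of other brain cells were much lower but not absent. The 8 fibroblast markers summed to 240 to 1401 CPM in vehicle and 68.3 to 520 CPM with full-length NfL, nearly all of it Fn1 (fibronectin), which was highest in the batch 1 library of each group (1396, 516 and 1484 CPM in vehicle, full-length and coiled-coil). The other 7, the collagens among them, summed to only 1.04 to 7.35 CPM in vehicle and 0.853 to 3.89 CPM with full-length NfL, and were highest in batch 3 in every group. The 10 neuron markers summed to 31.0 to 96.5 CPM in vehicle and 16.1 to 47.1 CPM with full-length NfL, the 10 astrocyte markers to 26.0 to 74.8 and 22.3 to 46.9 CPM, with Gjb6 at 0 in all groups. Sums for the other lists in vehicle and with full-length NfL were 123 to 189 and 95.5 to 125 CPM (11 oligodendrocyte markers), 46.0 to 101 and 37.5 to 49.5 CPM (6 endothelial markers, Cldn5 at 0 in all groups) and 679 to 1278 and 325 to 637 CPM (6 markers of border macrophages, mostly Mrc1). Mitochondrial genes held 0.400% to 0.518% of counts in vehicle, 0.210% to 0.372% with full-length NfL, with no overlap, and 0.256% to 0.450% with coiled-coil NfL; their part in the results was not tested. In a bulk sample, fewer cells of a type and less RNA per cell cannot be told apart.

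A gene is called here when its adjusted p in edgeR's quasi-likelihood test, over all 14687 tested genes, was under 0.05. With full-length NfL, 13 of the 33 genes were called higher than in vehicle and 2 lower, against a background of 14% of all tested genes higher and 10.9% lower. The median log2 fold change was 0.34 over the 33 genes and -0.02 over all tested genes. In all 4 batches, 21 of the 33 were higher than the vehicle library of the same batch and 5 were lower, against 26.5% and 28.1% of all tested genes. Libraries of the groups did not overlap for 8 of the 33, a share near the 25.8% of all tested genes. With batch as a term in the model, 18 were higher and 4 lower, against a background of 21.4% and 22.4%. Of all genes called, 56.4% were higher; that share was 45.8% with upper-quartile factors, 42.4% with library totals alone and 68.7% with a trend on gene length and GC content removed. Under those same settings 10, 10 and 15 of the 33 were higher. In either direction, 3694, 3591 and 3493 of the 14687 tested genes were called under them.

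**Figure D1:**
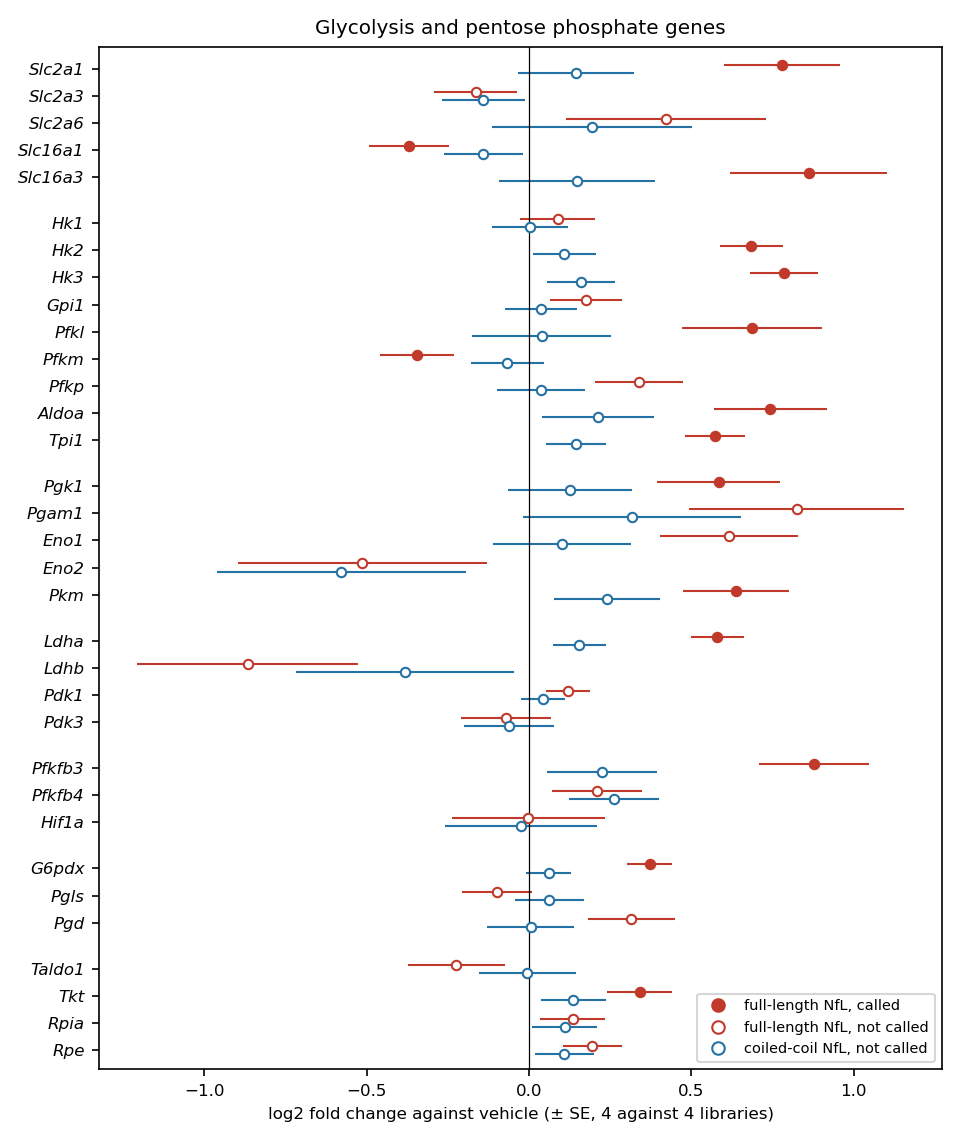
Log2 fold change against vehicle (x axis, ± SE) of each of the 33 genes (y axis), grouped by role from transport at the top to the nonoxidative pentose steps at the bottom, for full-length NfL in red and coiled-coil NfL in blue, 4 against 4 libraries. Filled points passed an adjusted p of 0.05: 13 to the right and 2 to the left of 0, all of them full-length NfL.

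Of the 5 transporters, 2 rose and 1 fell with full-length NfL. Slc2a1 encodes GLUT1, the widespread glucose carrier. It stood at 65.2, 41.7, 47.5 and 41.7 CPM in vehicle replicates 1 to 4 and at 85.7, 107, 62.3 and 81.1 CPM in the full-length libraries. Within each batch the treated library was higher, although replicate 3 with full-length NfL lay below vehicle replicate 1, so the groups overlapped. The change was 0.78 ± 0.18 on the log2 scale (adjusted p = 0.00915), a fold of 1.71.

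Slc16a3 encodes MCT4, which exports lactate from glycolytic cells. Its level was 41.7, 19.9, 28.5 and 19.9 CPM in vehicle and 54.1, 61.0, 34.9 and 49.6 CPM with full-length NfL, a change of 0.86 ± 0.24 (adjusted p = 0.0228). This call was lost without vehicle 2, full-length 2 or vehicle 4 (adjusted p up to 0.0677). Slc16a1, encoding MCT1, a carrier that moves lactate and other monocarboxylates either way, fell by 0.37 ± 0.12 (adjusted p = 0.0458). It went from 24.4, 27.2, 22.6 and 30.1 CPM to 23.0, 22.3, 16.5 and 18.8 CPM, with overlap, and the call was lost when any of 10 single libraries was left out. Slc2a3 (GLUT3, the high-affinity glucose carrier) and Slc2a6 (GLUT6) were not called, at -0.17 ± 0.13 and 0.42 ± 0.31. Slc2a6 spread widely within vehicle alone, from 32.2 to 90.2 CPM.

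Upper glycolysis, from hexokinase to triose phosphate isomerase, held 9 genes, of which 5 rose, 1 fell and 3 were not called. The hexokinases trap glucose in the cell by phosphorylation, and the 3 isozymes did not move alike. Hk3 (ENSMUSG00000025877, chr13:55005985-55021385 of GRCm38, minus strand) is the hexokinase typical of myeloid cells. It varied little within vehicle and most with coiled-coil NfL, at 294, 310, 297 and 287 CPM in vehicle, 475, 551, 479 and 544 CPM with full-length NfL, and 307, 397, 276 and 347 CPM with coiled-coil NfL. Every full-length library lay above every library of both other groups. Its interval for the log2 change against vehicle ran from 0.56 to 1.01 (adjusted p = 0.000772).

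Hk2 (ENSMUSG00000000628, chr6:82725025-82774454, minus strand), an inducible isozyme that can bind mitochondria, read 98.4, 83.7, 84.8 and 81.2 CPM in vehicle, 127, 164, 126 and 142 CPM with full-length NfL and 98.6, 101, 85.6 and 90.4 CPM with coiled-coil NfL. Again no full-length library overlapped either other group, and the interval against vehicle was 0.47 to 0.90 (adjusted p = 0.00102). Hk1, the isozyme of most resting tissues, was not called, with an interval of -0.17 to 0.34. It was slightly higher in the treated library of each batch. Per kb of coding-transcript exon, Hk3 was the most abundant of the family in vehicle (88.6 ± 2.82 CPM per kb, SD, n = 4), followed by Hk2 (14.6 ± 1.29) and Hk1 (10.2 ± 1.22).

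Phosphofructokinase, the committed step, has a liver-type, a muscle-type and a platelet-type subunit. Pfkl (liver type) rose by 0.69 ± 0.22 (adjusted p = 0.0362), from 83.0, 47.4, 53.4 and 47.2 CPM in vehicle to 118, 104, 64.1 and 85.8 CPM. Pfkm (muscle type) fell by 0.35 ± 0.11 (adjusted p = 0.0436), from 23.5, 19.5, 18.5 and 22.4 CPM to 17.7, 14.3, 18.2 and 15.7 CPM, and the groups lay close without overlap. Both calls depended on single libraries: Pfkl was lost without any of 6 and Pfkm without any of 7, and Pfkl was also lost with upper-quartile factors or library totals. Pfkp (platelet type) was at 0.34 ± 0.14 and was not called (adjusted p = 0.0871), but passed with batch in the model (0.00502) or without full-length replicate 1 (0.0239).

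Aldoa, the aldolase that splits fructose 1,6-bisphosphate, rose by 0.74 ± 0.17 (adjusted p = 0.0102). It stood at 473, 281, 323 and 274 CPM in vehicle and at 628, 623, 460 and 551 CPM with full-length NfL, where only replicate 3 lay below vehicle replicate 1. Tpi1, which interconverts the triose phosphates, read 127, 94.6, 112 and 99.9 CPM against 174, 170, 144 and 156 CPM, with no overlap and an interval of 0.37 to 0.77. Gpi1, which isomerizes glucose 6-phosphate, was not called (0.18 ± 0.11).

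Of the 5 genes of lower glycolysis, where ATP is recovered, 2 rose. Pkm encodes pyruvate kinase of muscle and most proliferating cells, the last step. It rose by 0.64 ± 0.16 (adjusted p = 0.0152), from 396, 259, 278 and 237 CPM to 474, 496, 386 and 463 CPM. Eno1, the main enolase, was at 0.61 ± 0.21 and just missed the threshold (adjusted p = 0.0527). It passed with batch in the model (adjusted p = 0.00181) and with batch b1 left out (0.78, adjusted p = 0.00394), a setting chosen after seeing the data. Pgk1, the first ATP-yielding enzyme, rose by 0.58 ± 0.19 (adjusted p = 0.0415), but on only 40 to 103 counts per library. That call was lost without any of 6 libraries and under 5 other settings. Pgam1, the phosphoglycerate mutase, had 9 to 26 counts and was not called (0.82 ± 0.33, adjusted p = 0.0871). Eno2, the enolase characteristic of neurons, was not called either, at -0.51 ± 0.38. Its level in vehicle was 3.81 to 8.15 CPM.

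At the fate of pyruvate, 1 of 4 genes rose. Ldha (ENSMUSG00000063229, chr7:46841475-46855627, plus strand) encodes the lactate dehydrogenase subunit that favours lactate formation. Vehicle libraries held 168, 137, 165 and 134 CPM, full-length libraries 220, 242, 221 and 219 CPM, and coiled-coil libraries 173, 168, 165 and 166 CPM. The full-length group stood clear of both others, with an interval against vehicle of 0.40 to 0.76 (adjusted p = 0.00102). Ldhb, the subunit that favours pyruvate, was at -0.87 ± 0.34 and was not called (adjusted p = 0.0812). It stood at 8.63, 5.44, 5.90 and 5.83 CPM in vehicle and at 5.80, 2.65, 2.64 and 2.99 CPM with full-length NfL, lower in 4 of 4 batches. With batch in the model the difference passed (adjusted p = 0.000457), and without batch b1 it was -1.06 (adjusted p = 0.00171). Pdk1 and Pdk3, kinases that shut pyruvate dehydrogenase off, were at 0.12 ± 0.07 and -0.07 ± 0.14 and were not called.

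Compared across batches, the sums of fibroblast markers without Fn1 and of neuron markers did not follow the order of Ldhb and Eno2. Within each batch, both sums and Ldhb were lower with full-length NfL than with vehicle. So were the sums of astrocyte, oligodendrocyte, endothelial, border macrophage and microglial markers. Eno2 was lower in every batch but batch 2. Neuron sums were 47.1 against 73.2, 30.4 against 85.4, 16.1 against 31.0 and 41.2 against 96.5 CPM in batches 1 to 4. Ldhb was highest, at 8.63 and 8.62 CPM, in the batch 1 libraries of vehicle and coiled-coil NfL, where the 7 fibroblast markers other than Fn1 summed to 4.94 and 4.31 CPM. Vehicle replicate 3 had the largest such sum, 7.35 CPM, with Ldhb at 5.90 CPM. Fn1 itself, like Ldhb, was highest in the batch 1 library of each group. It was at 1396, 516 and 1484 CPM there in vehicle, full-length and coiled-coil NfL. Eno2 was highest in vehicle replicate 1 (8.15 CPM), where neuron markers summed to 73.2 CPM. It was 6.35 CPM in full-length replicate 2 with a neuron sum of 30.4 CPM, 2.42 CPM in coiled-coil replicate 4 with a sum of 70.5 CPM, and 5.10 CPM in vehicle replicate 4, which had the largest sum (96.5 CPM). Of the 8 neuron markers tested, 2 were called lower with full-length NfL, beside 10.9% of all tested genes, and 8 with batch in the model, beside 22.4%. Of the 6 fibroblast markers tested, 2 were called lower, and only with batch in the model. Of 9 astrocyte markers 1 was called lower, and 7 with batch in the model. Of 8 oligodendrocyte markers 1 was called higher and 0 lower, and 1 higher and 5 lower with batch. Of 10 microglial markers 1 was called higher and 3 lower, and 4 and 4 with batch. Endothelial and border macrophage markers had equal numbers of calls in each direction. The part of other cells in Ldhb, Eno2, Pfkm and Slc16a1 was not tested.

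**Figure D2:**
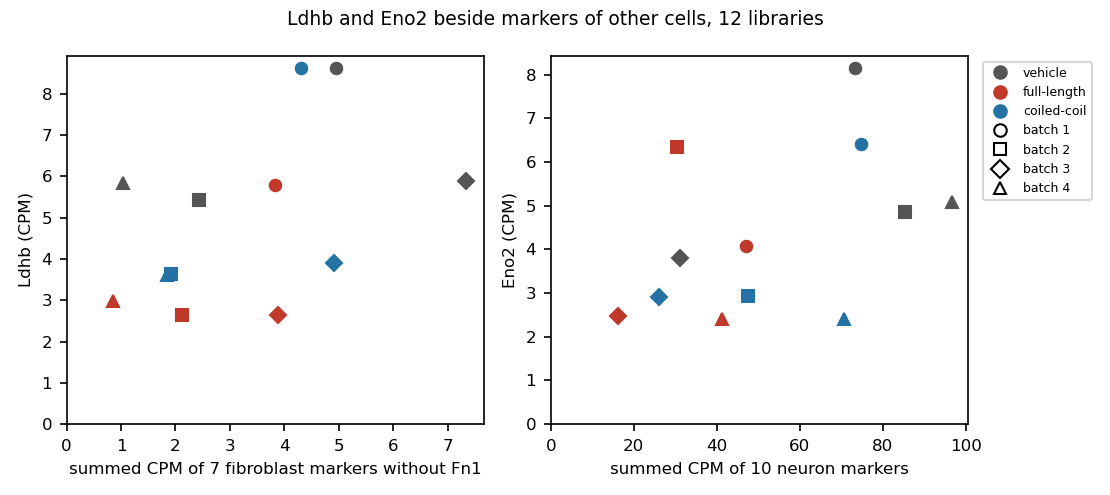
Level of Ldhb (left, CPM) against the summed CPM of 7 fibroblast markers without Fn1, and of Eno2 (right, CPM) against the summed CPM of 10 neuron markers, with 1 point per library, coloured by treatment and shaped by batch. The 2 highest Ldhb points, 8.63 and 8.62 CPM, are the batch 1 libraries of vehicle and coiled-coil NfL, while the largest fibroblast sum, 7.35 CPM, is vehicle replicate 3. Fn1, left out of that sum, was highest in batch 1 of each group, as Ldhb was.

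Among the 3 regulators, Pfkfb3 alone was called. Its product makes fructose 2,6-bisphosphate, the strongest activator of phosphofructokinase. Pfkfb3 (ENSMUSG00000026773, chr2:11471433-11554077, minus strand) read 109, 90.1, 136 and 82.8 CPM in vehicle, 144, 246, 191 and 187 CPM with full-length NfL and 114, 126, 129 and 120 CPM with coiled-coil NfL. The change of 0.88 ± 0.17 (adjusted p = 0.00414) was the largest log2 increase among the 33 genes in this comparison, and full-length replicate 1 lay just above the highest vehicle library. Pfkfb4, a related enzyme, was at 0.21 ± 0.14 and passed only with batch in the model (adjusted p = 0.0177). Hif1a, the oxygen-regulated subunit of the factor that drives many of these genes, did not pass, with a log2 difference of -0.0021 ± 0.24 and an interval of -0.51 to 0.51. Its level was 328 CPM in vehicle replicate 1 and 169 to 202 CPM in the other vehicle libraries, and 302 against 178 to 203 CPM with full-length NfL, so batch 1 stood high in both groups. HIF-1α is controlled largely through protein stability, which RNA counts do not measure.

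In the oxidative branch of the pentose phosphate pathway, 1 of 3 genes rose. G6pdx, glucose-6-phosphate dehydrogenase, catalyses the entry step that yields NADPH. It went from 165, 138, 164 and 146 CPM to 188, 198, 206 and 201 CPM, with coiled-coil libraries at 159, 161, 153 and 166 CPM. The 4 full-length libraries lay above all others, and the interval against vehicle was 0.22 to 0.52 (adjusted p = 0.00351). Pgd, the second NADPH-yielding enzyme, was at 0.31 ± 0.13 and passed only with batch in the model (adjusted p = 0.104 without it, 0.00969 with it), without vehicle replicate 1, with batch b1 left out or with the length and GC trend removed. Pgls, the lactonase between them, was not called (-0.10 ± 0.11).

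Of the 4 nonoxidative genes, which shuttle sugars between pentoses and glycolytic intermediates, only Tkt was called. Tkt encodes transketolase and rose by 0.34 ± 0.10 (adjusted p = 0.0275), from 303 to 408 CPM in vehicle to 404 to 468 CPM. This call was lost without full-length 1, vehicle 2, full-length 2 or vehicle 4, and with upper-quartile factors or library totals. Taldo1 (transaldolase) and Rpe (ribulose-phosphate epimerase) were not called, at -0.22 ± 0.15 (adjusted p = 0.289) and 0.19 ± 0.09 (adjusted p = 0.137). Both passed with batch in the model (0.0396 and 0.0261), and Rpe also without vehicle replicate 3 (0.0186). Rpia, the ribose-phosphate isomerase, was not called (0.13 ± 0.10).

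**Figure D3:**
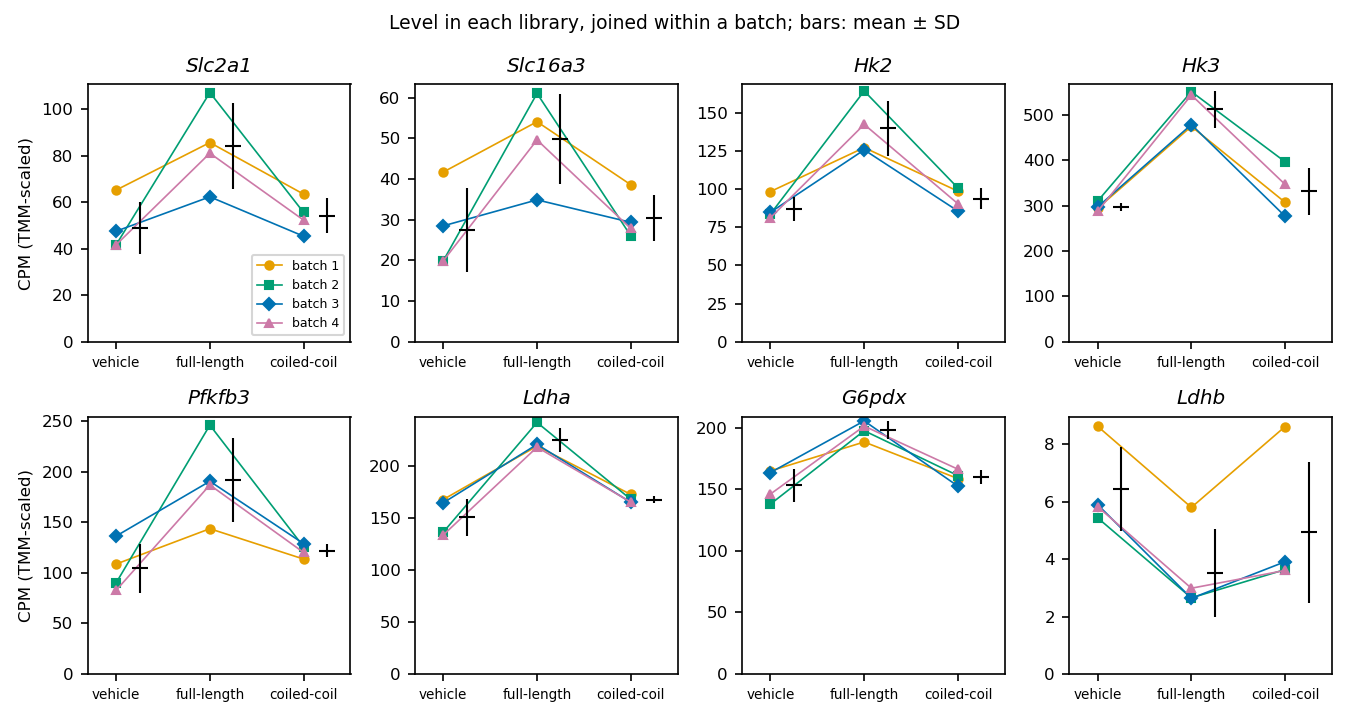
TMM-scaled CPM (y axis, from 0) of 8 genes in each library of vehicle, full-length NfL and coiled-coil NfL (x axis), with the libraries of a batch joined and black bars for the mean ± SD of 4. In Hk2, Hk3, Pfkfb3, Ldha and G6pdx the full-length libraries lie above all others, and in Ldhb batch 1 is highest in each group.

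Of the 15 calls against vehicle, 9 held without any single library and under every other setting tried: Slc2a1, Hk2, Hk3, Aldoa, Tpi1, Pkm, Ldha, Pfkfb3 and G6pdx. They reach from glucose uptake through both ends of glycolysis to lactate formation and entry into the pentose branch. How many of all called genes held in the same way was not counted, so 9 of 15 has no background here. In vehicle the most abundant of the 33 per kb of exon were Pgd (185 ± 36.1 CPM per kb, SD, n = 4), Taldo1 (159 ± 35.9) and Aldoa (148 ± 40.5), whose spreads overlap, and Tkt followed at 104 ± 15.3. Hk3 at 88.6 and Pkm at 76.4 ± 18.5 came next and did not differ beyond their spread. Ldha stood at 57.6 ± 6.91 and Ldhb at 4.11 ± 0.93 CPM per kb.

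With coiled-coil NfL, 0 of the 33 genes were called in either direction, where 0% of all tested genes were called higher and 0% lower by edgeR. None of the 33 had an unadjusted p under 0.05 and the smallest adjusted p was 0.71. DESeq2 called 27 genes in the whole table and none of these 33, of which 24 were given an adjusted p by it. With batch in the model the background was 0.00681% higher and 0.00681% lower, and again 0 of 33 were called. Log2 fold changes ran from -0.58 (Eno2) to 0.32 (Pgam1) with a median of 0.10, against 0.0039 over all tested genes. The 95% intervals bound what these libraries allow: -0.10 to 0.32 for Hk2, -0.07 to 0.39 for Hk3, -0.02 to 0.33 for Ldha, -0.14 to 0.59 for Pfkfb3 and -0.09 to 0.21 for G6pdx. These do not show that the coiled-coil protein left the genes unchanged. Of the 33, 4 were higher than vehicle in 4 of 4 batches (Hk2, Ldha, Pfkfb4 and Rpia) and 2 lower (Eno2 and Ldhb). Over all tested genes these shares were 11% and 12.3%, so the first was near its background and the second below it.

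By label, the 2 proteins differ in that the coiled-coil form lacks the rest of the NfL chain. Whether they differ otherwise is not stated. The dose of 5 µg is equal by mass, not by number of molecules. Set directly against each other at 5 µg and 24 h, full-length NfL gave higher levels of 5 of the 33 genes and lower levels of 0, against a background of 1.38% higher and 1.34% lower. The 5 were Hk3 (0.63 ± 0.10, adjusted p = 0.0143), Hk2 (0.58 ± 0.10, 0.0153), Ldha (0.42 ± 0.08, 0.0245), Tpi1 (0.43 ± 0.09, 0.0386) and G6pdx (0.31 ± 0.07, 0.0391). None of the 33 was called lower by DESeq2 or by edgeR without batch in the model. Groups did not overlap for 9 of the 33 genes, against 12.5% of all tested genes, among them Pfkfb3, Aldoa, Pkm and Tkt, which were not called (adjusted p = 0.0599, 0.111, 0.182 and 0.26).

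These 5 calls rested on few libraries. The count was 0 without full-length 2 or full-length 4, 1 without coiled-coil 1 or coiled-coil 3, 2 without coiled-coil 4 and 3 without batch b1. Over all tested genes the number higher fell too, from 202 to 79 without batch b1. With batch in the model 14 of the 33 genes were higher and 2 lower, against a background of 8.99% and 10.1%. DESeq2 called 10 higher, against a background of 1285 calls in either direction among the 13295 genes it tested. Of those 1285 calls, 55.0% were higher. The largest log2 differences that were not called were Slc16a3 (0.71 ± 0.24, adjusted p = 0.118) and Pfkfb3 (0.65 ± 0.17). For genes such as Hk1 and Hif1a the difference between the proteins was small but bounded only to -0.17 to 0.34 and -0.49 to 0.54.

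Because 2 genes counted in the same library share its scaling, the ratio of related genes was also compared. Mean log2 ratios of counts were higher with full-length NfL than with vehicle for Ldha over Ldhb (6.08 ± 0.57 against 4.56 ± 0.22, SD, n = 4) and for Slc16a3 over Slc16a1 (1.29 ± 0.17 against 0.01 ± 0.65). The hexokinases moved likewise, Hk2 over Hk1 (1.04 ± 0.33 against 0.45 ± 0.09) and Hk3 over Hk1 (2.92 ± 0.29 against 2.22 ± 0.18). In each of these 4 pairs no full-length library overlapped vehicle and the two-sided exact permutation p was 0.0286, the smallest that 4 against 4 libraries allow. Adjusted over the 18 tests (6 pairs, 3 comparisons) it became 0.0857, so none passed. That permutation ignores batch. In a paired test that flips the sign of each batch's difference, p was 0.125 for each of these 4 pairs, the smallest that 4 batches allow. Slc2a1 over Slc2a3 overlapped (3.32 ± 0.40 against 2.38 ± 0.47, exact p = 0.0571), and Pfkp over Pfkl went the other way in 3 of 4 batches (exact p = 0.371). Coiled-coil NfL left each ratio overlapping with vehicle, and Ldha over Ldhb was 5.19 ± 0.58 there, higher in 4 of 4 batches (exact p = 0.114). Between the 2 proteins, Slc16a3 over Slc16a1 and Slc2a1 over Slc2a3 did not overlap (exact permutation p = 0.0286, adjusted 0.0857). The remaining ratios overlapped between the proteins.

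**Figure D4:**
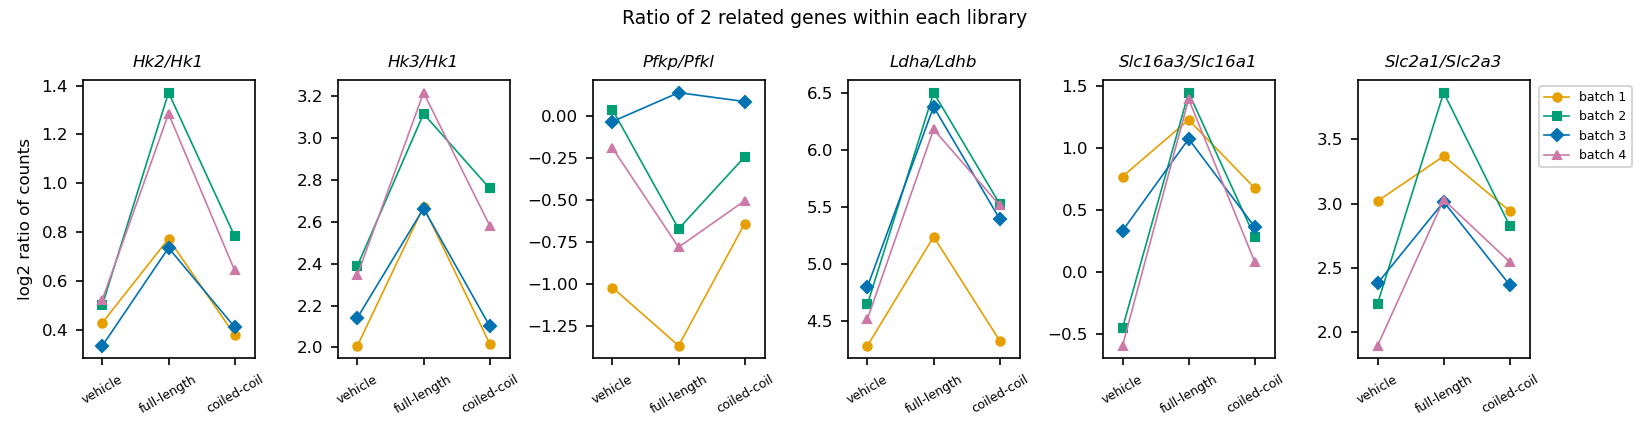
Log2 ratio of the counts of 2 related genes in each library (y axis, own scale per panel) for vehicle, full-length NfL and coiled-coil NfL (x axis), with libraries of a batch joined. In the Hk2/Hk1, Hk3/Hk1, Ldha/Ldhb and Slc16a3/Slc16a1 panels all 4 full-length libraries lie above all 4 vehicle libraries.

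Several glycolytic genes have processed pseudogenes, and reads of 50 bases that match a copy can be lost or split. The share of 50-base windows of a gene's coding transcripts found also in another annotated gene was 68.0% for Pgk1, 49.5% for Eno1, 41.5% for Pgam1, 24.4% for Gpi1, 23.7% for Pkm, 21.0% for Ldhb, 10.4% for Ldha and 6.83% for Tpi1. It was 0% for Hk2, Hk3, Slc16a1, Slc16a3, Tkt and Pgd. Gapdh, the glycolytic dehydrogenase outside the set, shares 58.4% of its windows and had 0 to 4 counts per library, so it cannot be read here. The low levels of Pgk1 and Pgam1 are uncertain too. Eno1, with a share of 49.5%, had 673 to 2168 counts per library. Whether shared windows lowered any of these counts was not tested. Adding the counts of 33 pseudogene rows to their parent genes, a check chosen after seeing the data, left the count at 13 higher and 2 lower. Pseudogenes of Gpi1 held 782 to 1320 counts per library, but those of Pgk1 held 0 to 1 and those of Eno1 7 to 36. For Pgk1 and Eno1 the check could therefore change little. Reads lost before counting are not recovered by it.

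The promoters of the set were searched for 2 short motifs read on both strands: the core of the hypoxia response element (ACGTG or GCGTG) and the core of the antioxidant response element (TGACNNNGC). RefSeq promoter windows, 250 bases before to 50 after a start on GRCm38.p6, were found for 32 of the 33 genes, all but Slc2a3. ACGTG was in 13 of 32 (40.6%), against 19.6% of all 32851 windows, and ACGTG or GCGTG in 25 of 32 (78.1%), against 43.8%. Either form stood in 10 of the 13 genes that rose, 2 of the 2 that fell and 13 of the 17 not called. ACGTG alone was in 8 of 13 that rose, 2 of 2 that fell and 3 of 17 not called. GCGTG was in 5 of 13, 1 of 2 and 12 of 17, against 32.4% of all windows. These sets are small, and the differences between them were not tested. TGACNNNGC was in 2 of 32 (6.25% against 12.4%), those of G6pdx and Slc16a1. Upstream sequences are shown for the 2 genes that rose with the smallest p and the gene that fell with the smallest p, 5′ to 3′, with the searched motifs in capitals. CACGTG reads the same on both strands and counts once on each. Hk3 is chr13:55021386-55021635 (minus strand), Ldha chr7:46845554-46845803 (plus strand) and Pfkm chr15:98092339-98092588 (plus strand), all from RefSeq.
Hk3: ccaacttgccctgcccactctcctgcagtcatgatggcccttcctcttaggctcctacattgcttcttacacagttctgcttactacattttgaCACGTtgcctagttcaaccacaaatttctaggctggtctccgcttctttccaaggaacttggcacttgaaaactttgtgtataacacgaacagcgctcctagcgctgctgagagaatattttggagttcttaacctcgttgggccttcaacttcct
Ldha: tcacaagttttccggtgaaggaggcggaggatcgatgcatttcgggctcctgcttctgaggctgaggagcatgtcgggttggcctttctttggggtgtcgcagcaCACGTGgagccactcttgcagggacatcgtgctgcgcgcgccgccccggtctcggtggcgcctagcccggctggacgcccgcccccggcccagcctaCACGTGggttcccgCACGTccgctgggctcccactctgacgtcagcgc
Pfkm: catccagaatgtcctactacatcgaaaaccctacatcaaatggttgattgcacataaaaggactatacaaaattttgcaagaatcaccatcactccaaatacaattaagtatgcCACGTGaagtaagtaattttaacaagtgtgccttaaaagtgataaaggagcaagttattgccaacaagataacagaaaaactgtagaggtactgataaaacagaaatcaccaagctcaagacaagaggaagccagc
Hk3 holds 1 such motif, at -156 from the start. Ldha holds CACGTG at -145 and at -48 and a further CACGT at -34, and its RefSeq start lies 4329 bases from the GENCODE gene start. Pfkm, which fell, also holds CACGTG, at -136, and has 4 RefSeq starts, of which the one nearest the GENCODE start is shown. The match of letters is a description and not a binding site.

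Other genes of sugar metabolism, from lists outside the 33, were mixed. Their counts are to be read against the 14% of all tested genes that were higher and the 10.9% that were lower. Of 10 other glycolysis genes tested, 2 were higher with full-length NfL and 2 lower: Adpgk, the ADP-dependent glucokinase (0.63 ± 0.11, adjusted p = 0.0031), and Tigar, a fructose bisphosphatase (0.28 ± 0.07, 0.0178), rose, and Galm, the galactose mutarotase, fell by 0.49 ± 0.12 (0.012). Of 7 other pentose phosphate genes 0 rose and 2 fell, Prps2 and Prpsap1, of phosphoribosyl pyrophosphate synthesis, by 0.69 ± 0.12 (0.00257) and 0.35 ± 0.06 (0.00288). Of 10 other sugar and monocarboxylate transporters 3 rose and 2 fell. Slc2a9 (0.89 ± 0.18), Slc16a6 (0.55 ± 0.16) and Bsg, the chaperone of MCT1 and MCT4 (0.24 ± 0.07), rose, and Slc37a2 fell by 0.84 ± 0.13 (0.00138).

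Downstream of pyruvate, 9 of 18 citrate cycle genes rose and 0 fell in edgeR, again beside 14% and 10.9% of all tested genes, with Sdhb (0.74 ± 0.11, adjusted p = 0.00141), Mdh2 (0.58 ± 0.08, 0.000908) and Cs (0.48 ± 0.07, 0.00151) leading by p. The list's median was 0.26. Of 10 genes of pyruvate import and dehydrogenase 3 rose (Pdha1 0.26 ± 0.07, Dld 0.20 ± 0.06, Pdhx 0.22 ± 0.07) and 2 fell, among them Pdk2, a dehydrogenase kinase, by 0.77 ± 0.21. Of 14 genes of gluconeogenesis and glycogen 3 rose (Pgm1 0.61 ± 0.09, Ugp2 0.42 ± 0.07, Pygb 0.29 ± 0.08) and 1 fell, Gyg, the glycogen primer, by 0.62 ± 0.19.

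Among 16 oxygen and sugar sensing factors 3 rose and 2 fell. Hif3a, an inhibitory relative of Hif1a, was at a mean of 0.21 CPM in vehicle and 4.51 CPM with full-length NfL (4.39 ± 0.67, adjusted p = 0.00136), Mlx rose by 0.60 ± 0.11 and Egln2, an oxygen-sensing hydroxylase, by 0.38 ± 0.09. Mlxipl, the sugar-sensing ChREBP, fell by 2.06 ± 0.30 (0.00123), from 3.07 to 0.731 CPM. Of 15 hypoxia targets outside glycolysis 5 rose and 3 fell, beside 14% and 10.9% of all tested genes. They include Fam162a (0.58 ± 0.10), P4ha1 (0.46 ± 0.13) and Car9 (0.60 ± 0.17), which rose, and Bnip3l, a mitophagy receptor, which fell by 0.58 ± 0.12. With coiled-coil NfL none of these lists had a called gene in edgeR. The smallest p in each list belonged to Adpgk (0.35 ± 0.11), Prps2 (-0.44 ± 0.12), Slc37a1 (-0.49 ± 0.18), Pdhx (0.17 ± 0.07), Pgm1 (0.21 ± 0.09), Sdhb (0.37 ± 0.11), Hif3a (2.40 ± 0.68) and Fam162a (0.31 ± 0.10), with adjusted p of 0.621 to 0.676.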

How the data were processed

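RNA sequencing counts of 12 libraries were used as the authors deposited them, whole-number read counts per Ensembl gene with no normalization. Per the submitters' processing notes, reads were aligned to GRCm38 with GSNAP. The sources used here give no counting tool, gene annotation or setting for strand. Per the labels, libraries came from a stranded mRNA kit and were read as single 50-base reads. Symbols and coordinates are from GENCODE M21, and rows with no symbol made up 0.279% of the table.

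Genes were filtered with filterByExpr (14687 kept, 37949 removed), scaled by TMM and fitted in 1 edgeR quasi-likelihood model (edgeR 4.0.16, R 4.3.3) with 3 groups and 9 residual degrees of freedom. Tests were two-sided, with Benjamini-Hochberg adjustment over all tested genes and a threshold of 0.05. Changes are log2 ± SE with 95% intervals. The test was checked on simulated data. DESeq2 1.42.0, other scalings, no filter, a length and GC correction, batch as a term and leaving out each library were alternatives. Batch labels give the replicate numbers their pairing: libraries of the same number correlated at 0.306 to 0.735 over 12 pairs after group means were removed, those of different numbers at -0.461 to 0.445 over 36 pairs.

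Members, gene lists and tests were chosen with earlier results of these data known. All 33 members are named. From each other list up to 3 called genes with the smallest p in the direction with more calls and 1 in the other direction are named, or the gene with the smallest p where none is called. Copies were searched only among GENCODE M21 transcripts, not in the genome as planned, and the planned protein sequences are not shown. Isozyme ratios used a pseudocount of 0.5, exact permutation and a sign-flip test paired by batch (scipy 1.17.1).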

Additional observations from a re-analysis of the deposited data

Results flagged for a closer look

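In 99 groups of 4 libraries (33 genes in 3 groups), 8 had 1 library set far apart from the other 3. About 1 group in 20 is set apart in this way by chance. Of the 8, 6 were batch 1 libraries. Ldhb was 8.63 CPM in vehicle replicate 1 (next 5.90), 5.80 CPM in full-length replicate 1 (next 2.99) and 8.62 CPM in coiled-coil replicate 1 (next 3.91). Eno2 was 6.41 CPM in coiled-coil replicate 1 (next 2.92), Pgls 42.0 CPM in coiled-coil replicate 1 (next 39.8) and Pgd 530 CPM in vehicle replicate 1 (next 384). Outside batch 1, Ldha was 242 CPM in full-length replicate 2 (next 221) and Rpe 66.3 CPM in vehicle replicate 3 (next 52.7). Replicate 1 was the highest of its group for 21 of the 33 genes in vehicle, 13 with full-length NfL and 18 with coiled-coil NfL.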

How the results depend on the processing

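For full-length NfL against vehicle the number of genes called higher was 13 and stayed within 10 to 18 over the other settings and 9 to 14 over the omissions of 1 library. The number lower was 2. It was 4 with the replicate block, 3 with DESeq2, 0 with no filter on low counts and 1 with the length and GC trend removed. Leaving out 1 library gave 0 to 3: 0 without vehicle 1, 2 or 4, full-length 2 or 4 or coiled-coil 3 or 4, 1 without coiled-coil 2 or full-length 3, and 3 without full-length 1. Full-length against coiled-coil NfL had 5 higher. This was 14 with the replicate block, 10 with DESeq2, 3 with batch b1 left out and 0 to 6 over omissions of 1 library. Over all tested genes the number higher went from 202 to 79 with batch b1 left out. Among the 33 genes the number lower was 0, and 2 with the replicate block. Coiled-coil NfL against vehicle stayed at 0 in every setting. Against vehicle the replicate block ended none of the 15 calls and added Pfkp, Eno1, Pfkfb4, Pgd and Rpe as higher and Ldhb and Taldo1 as lower. Why counts moved was not tested.

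Directions turned only for differences that were not called. Against vehicle with full-length NfL, Hif1a was 0.019 with the replicate block, 0.015 with no filter, 0.097 with the length and GC trend removed, 0.062 without batch b1 and -0.20 to 0.26 over omissions of 1 library. With coiled-coil NfL against vehicle, Hk1 was -0.022 with upper-quartile factors, -0.0032 with RLE factors, -0.027 with library totals, -0.0010 with DESeq2, -0.018 without batch b1 and -0.093 to 0.074 over omissions. Pfkp was -0.0057 without batch b1. Hif1a was 0.0030 with the replicate block, 0.068 without batch b1 and -0.20 to 0.24 over omissions. Pgd was -0.021, -0.0016 and -0.028 with upper-quartile factors, RLE factors and library totals, and -0.083 to 0.15 over omissions. Taldo1 was 0.0075 with the replicate block, 0.062 without batch b1 and -0.11 to 0.16 over omissions. Omissions alone gave Gpi1 -0.046 to 0.15, Pfkl -0.070 to 0.27, Pfkp -0.014 to 0.11, Pgk1 -0.0050 to 0.22, Eno1 -0.038 to 0.37, Pdk3 -0.20 to 0.0073 and the Pfkp/Pfkl ratio -0.26 to 0.090.

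Between the proteins, the length and GC correction gave Slc2a3 0.071, Pdk3 0.00057 and Pfkfb4 0.0079, and no filter gave Pdk3 0.0073. Hif1a was -0.0036, -0.012 and -0.0055 with upper-quartile factors, library totals and batch b1 left out, and Rpia -0.0033 and -0.014 with upper-quartile factors and library totals. Omissions gave Slc2a3 -0.11 to 0.036, Slc2a6 -0.043 to 0.37, Eno2 -0.29 to 0.49, Pdk3 -0.059 to 0.14, Pfkfb4 -0.13 to 0.035, Hif1a -0.17 to 0.20 and Rpia -0.016 to 0.11. Counts of 9 to 26 for Pgam1 and 40 to 103 for Pgk1 limit both genes.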
